A study of Mus musculus with 6 samples.

Results

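The Bcl2 family decides whether the outer membrane of mitochondria stays closed during cell stress. The genes described are 10 regulators: the guardians Bcl2, Bcl2l1 and Mcl1, the pore formers Bax and Bak1, the sensors Bad, Bid and Bcl2l11, and the mitophagy receptors Bnip3 and Bnip3l. A member was taken through every probe set of the array whose platform annotation names that gene and no other. By this rule 28 probe sets represented 8 of the 10 genes, out of 18193 genes named in this way. Bnip3l appears in the annotation only on 3 probe sets that also name a pseudogene, Bnip3l-ps, and no probe set is annotated to Bax, so neither was analysed here.

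Signals were measured on 6 Affymetrix arrays, each hybridised with biotin-labelled RNA of the left ventricle from C57BL/6 males that were 12 to 16 weeks old. The knockout group held 3 samples of akt2-/- mice, with a targeted disruption of Akt2 that was backcrossed more than 7 times, and the control group held 3 samples of wild type mice; the labels give no treatment for either. Akt2 is a kinase of insulin signalling, and the comparison asks how the ventricle differs without it. The labels name no separate animals, so the spread between samples may be partly technical.

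Guardian proteins bind the sensors and pore formers and hold them in check. When the sensors outweigh the guardians, Bax and Bak1 open the membrane, cytochrome c leaves, and caspases are activated. Akt kinases are known to act on this balance in more than one way. They phosphorylate the Bad protein, which keeps it away from the guardians, and they restrain FoxO transcription factors, for which Bcl2l11 and Bnip3 are known target genes. An array reads transcripts, so phosphorylation of Bad is not seen in these data.

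Akt2 itself was low in each knockout array. Its brightest probe set had signals of 477.8, 394.5 and 255.4 in knockout replicates 1, 2 and 3, against 2362.6, 2561.3 and 2505.4 in the wild type. The 2 replicate 1 arrays stood apart from the other 4 by their controls: median 18S ribosomal RNA control signals were 82330 in the wild type and 57280 in the knockout, against 152.7 to 446.7 elsewhere, and median signals over all probe sets were 167.2 and 134.3 in that order, against 88.4 to 91.2. Cardiomyocyte markers were bright in every array, with all 10 of 10 listed genes above the filter on low signals. Of the 9 lymphocyte markers on the array, 0 were above it. Since each set of arrays held both genotypes, differences are also given for the replicate 1 pair and for replicates 2 and 3.

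Of the 28 probe sets, 23 passed the filter, a mean signal at or above the median of all probe sets on the scale log2(signal + 21.7), and were tested. In the test with limma, 0 of the 23 had an adjusted p under 0.05, as did 0% of all 22519 tested probe sets. The disrupted gene did not pass in this fit either. The brightest Akt2 probe set, at a log2 difference of -2.69 (SE 0.249), had a limma adjusted p of 0.18. With a term for the replicate 1 arrays it was 0.0877. So 0 calls among the members does not show that they were unchanged. An unadjusted p under 0.05 was reached by 2, one of Bcl2 and one of Bid, against 2.01% of all tested. With a term for the replicate 1 arrays 6 of the 23 reached it, against 7.77% of all, and with the replicate number as a block 4, against 5.63%. A trended, robust variance estimate beside that term, added after the data were seen, gave 9, against 8.31%. After adjustment 0 members passed in any of these fits, against 0.00444% of all probe sets with the term alone and 0.0577% with the trended estimate. The brightest Akt2 probe set did pass with the trended estimate, at a limma adjusted p of 0.00136. The 6 members' probe sets under 0.05 with the term alone belonged to Bcl2 (1 lower in the knockout), Bid (1 lower), Bak1 (1 higher and 1 lower) and Bcl2l11 (2 higher). Probe sets of 1 gene share their transcripts. Across all 23 the median log2 difference was 0.02, with 13 higher and 10 lower in the knockout, against 0.01 over all tested probe sets.

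The 3 arrays of each genotype did not overlap in 4 of the 23 probe sets, 1 higher and 3 lower in the knockout, against 7.3% of all tested probe sets (3.64% higher and 3.66% lower). These were 3 probe sets of Bcl2 and 1 of Bid. Among them, Bcl2 at 1422938_at passed the filter on low signals only through its wild type arrays, so its place in this count is not independent of the filter. By the brightest probe set of each gene, 1 of the 8 members was apart and higher and 1 apart and lower, against 7.46% of all genes in either direction. When signals were quantile-normalised or centred on each array's median, 2 members' probe sets were apart, against 7.8% and 6.02% of all. They were those of Bcl2 at 1437122_at (lower) and 1457687_at (higher). Without wild type replicate 1 the count over the 23 was 11, against 27.9% of all. The sources used here do not say which stretch of the transcript each probe set reads.

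**Figure D1:**
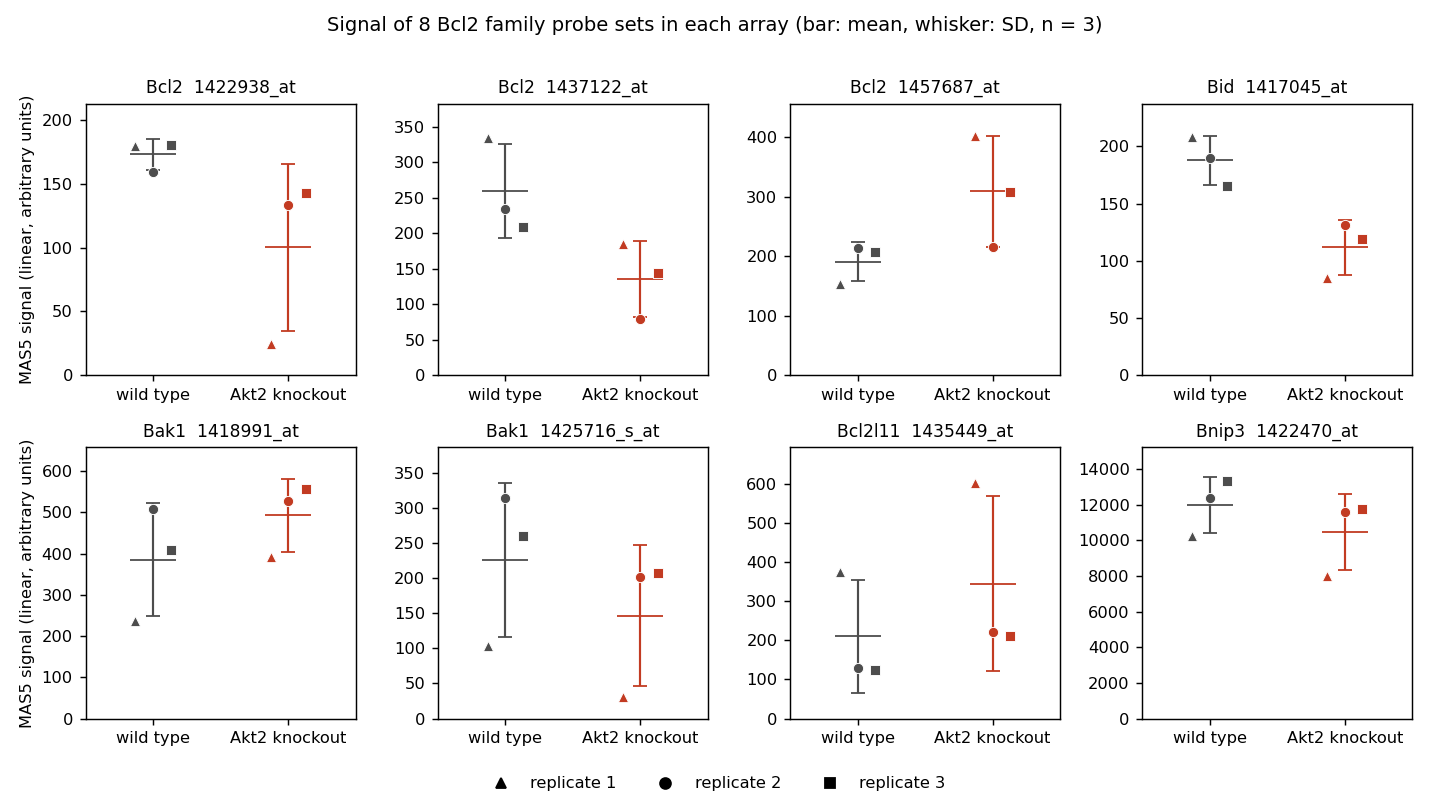
MAS5 signal (linear, arbitrary units) of 8 Bcl2 family probe sets in the 3 wild type (grey) and 3 Akt2 knockout (red) arrays, with marker shape for the replicate number, a bar for the mean and whiskers for the SD. In the 4 panels of the top row the genotypes do not overlap: Bcl2 at 1457687_at lies higher in the knockout and the other 3 lie lower.

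Bcl2, the founding guardian, gave readings of both signs. At 1437122_at the signals were 334.5, 234.2 and 208.7 in wild type replicates 1, 2 and 3 and 184.9, 79.0 and 144.0 in the knockout. Every knockout array lay below every wild type array, by a log2 difference of -0.87 (SE 0.318, 95% interval -1.62 to -0.11; n = 3 each), with a limma adjusted p of 1. The difference was of like size in both sets of arrays, -0.79 for the replicate 1 pair and -0.91 for replicates 2 and 3. With a term for the replicate 1 arrays its SE was 0.206 and the limma adjusted p was 0.625, within a range of 0.503 to 1 over all alternatives.

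A second Bcl2 probe set, 1422938_at, had 179.8, 159.3 and 180.6 in the wild type and 24.5, 133.4 and 142.6 in the knockout. Its log2 difference of -0.88 (SE 0.486) rested mostly on knockout replicate 1: it was -2.12 for the replicate 1 pair and -0.26 for replicates 2 and 3. The mean of its knockout arrays alone lay below the filter, so it was tested only because of the wild type signals. The brightest Bcl2 probe set, 1457687_at, went the other way, with 152.9, 213.3 and 207.3 in the wild type and 402.5, 216.2 and 308.6 in the knockout (log2 0.61, SE 0.264). Knockout replicate 2 exceeded the highest wild type array by only a few units there, and the difference was 1.28 for the replicate 1 pair against 0.27 for replicates 2 and 3. The mean over the 3 tested Bcl2 probe sets gave -0.38. The other 2 Bcl2 probe sets were below the filter, with signals of 31.0 to 126.0 at 1443837_x_at and 33.4 to 73.8 at 1440770_at, and overlapped between genotypes.

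Promoter sequences are shown for Bcl2, whose probe sets split by sign, and for Bcl2l11 and Bnip3, the members known as FoxO targets. Each is the 250 bases before a transcript start in RefSeq (GRCm38.p6), with capitals for matches to the FoxO core TGTTTAC or the hypoxia element core ACGTG, searched on both strands.

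Bcl2, chr1:106714291-106714540, minus strand: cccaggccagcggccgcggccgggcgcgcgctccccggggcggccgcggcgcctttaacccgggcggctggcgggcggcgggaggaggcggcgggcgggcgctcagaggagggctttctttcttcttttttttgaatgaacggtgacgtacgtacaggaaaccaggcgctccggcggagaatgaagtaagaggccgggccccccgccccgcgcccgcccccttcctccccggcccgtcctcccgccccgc
Bcl2l11, first start, chr2:128125788-128126037, plus strand: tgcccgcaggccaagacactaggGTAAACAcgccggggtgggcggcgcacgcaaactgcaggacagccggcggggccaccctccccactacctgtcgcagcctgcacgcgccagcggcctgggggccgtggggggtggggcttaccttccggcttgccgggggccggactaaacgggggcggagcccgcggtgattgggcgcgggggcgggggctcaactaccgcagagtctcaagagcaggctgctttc
Bnip3, chr7:138909507-138909756, minus strand: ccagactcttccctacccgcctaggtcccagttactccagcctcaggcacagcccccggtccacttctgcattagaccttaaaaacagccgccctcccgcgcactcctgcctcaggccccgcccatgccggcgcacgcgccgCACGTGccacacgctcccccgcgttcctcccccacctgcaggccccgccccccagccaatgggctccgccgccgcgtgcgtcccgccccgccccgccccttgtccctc

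The window of the first Bcl2l11 start holds 1 FoxO core, read as GTAAACA and beginning 227 bases before that start. This motif is found in 3.17% of the 32851 promoter windows of this length in RefSeq. The window of the second Bcl2l11 start, not shown, holds neither core. The Bnip3 window holds the letters CACGTG, which match the hypoxia core on both strands at once, beginning 108 bases before the start. That core is in 16.6% of windows. Neither core is in the Bcl2 window. RefSeq promoters were at hand for 9 of the 10 listed genes, in 13 windows, of which 1 held the FoxO core and 2 the hypoxia core. A match is a description of letters, and no binding was measured.

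Bcl2l1, the gene of the guardian Bcl-xL, overlapped between genotypes at each of its 4 probe sets. The brightest, 1420888_at, had 478.3, 586.8 and 851.9 in the wild type and 498.7, 877.6 and 681.1 in the knockout, a log2 difference of 0.10 (SE 0.296, 95% interval -0.60 to 0.81). Differences at its 2 dimmer tested probe sets were 0.32 (SE 0.307) and 0.25 (SE 0.28). In both, the difference lay for the replicate 1 pair, at 0.89 and 0.96, and was 0.04 and -0.10 for replicates 2 and 3. A further one, 1426050_at, had signals of 10.1 to 55.1 and was below the filter.

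Mcl1, a short-lived guardian that heart muscle needs to survive, was read by 6 probe sets, all tested, with differences over all arrays close to 0. The brightest, 1448503_at, had 4669.0, 8735.9 and 9078.9 in the wild type and 5810.7, 8767.4 and 8127.1 in the knockout. Genotypes overlapped in all 6, and log2 differences ran from -0.19 to 0.05. At the lowest, 1416881_at, the sign changed between the sets of arrays, 0.13 for the replicate 1 pair and -0.34 for replicates 2 and 3. With a term for the replicate 1 arrays the 95% intervals of all 6 lay between -0.54 and 0.38, so changes beyond that range were not seen in that fit. Without the term the intervals were wider, from -0.93 at 1416881_at to 0.81 at 1448503_at. An interval that includes 0 does not show that the levels were equal.

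Bak1, which forms pores in the outer membrane once activated, gave 1 reading of each sign. At 1418991_at the signals were 237.4, 509.0 and 408.6 in the wild type and 392.6, 527.8 and 558.0 in the knockout, higher in the knockout at each replicate number but overlapping between groups (log2 0.39, SE 0.305). At 1425716_s_at they were 103.6, 314.3 and 260.4 in the wild type and 30.5, 201.3 and 207.8 in the knockout, lower at each replicate number (log2 -0.72, SE 0.656). With a term for the replicate 1 arrays the log2 differences had SEs of 0.156 and 0.201 and limma adjusted p of 0.636 and 0.625, in ranges from 0.59 and 0.517 to 1 over all alternatives. The mean of both probe sets was -0.17.

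Bad, the sensor that Akt is known to phosphorylate, did not differ beyond the spread between arrays. At its brighter probe set, 1416582_a_at, the wild type had 462.1, 796.3 and 862.0 and the knockout 463.7, 778.9 and 710.8 (log2 -0.10, SE 0.312, 95% interval -0.84 to 0.64). At 1416583_at the sign changed between the sets of arrays, 0.92 for the replicate 1 pair and -0.52 for replicates 2 and 3. Both probe sets overlapped between genotypes.

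Bid, the sensor that caspase 8 cleaves to link death receptors to mitochondria, had its only tested reading lower in the knockout. At 1417045_at the signals were 208.3, 189.9 and 165.5 in the wild type and 84.8, 131.2 and 118.9 in the knockout. Each knockout array lay below each wild type array, and the log2 difference was -0.66 (SE 0.208, 95% interval -1.16 to -0.17), with a limma adjusted p of 1. With a term for the replicate 1 arrays the limma adjusted p was 0.625, and over all alternatives it ran from 0.513 to 1. It was -1.11 for the replicate 1 pair and -0.44 for replicates 2 and 3. After quantile normalisation it was -0.58 and after median centring -0.57, and the genotypes then overlapped. The 2 other Bid probe sets were below the filter at signals of 3.2 to 70.1, so the reading has no second probe set behind it.

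Bcl2l11, the gene of the sensor Bim, differed between sets of arrays far more than between genotypes. At 1435449_at the wild type had 375.3, 129.6 and 124.5 and the knockout 602.7, 222.1 and 209.7. The knockout was higher at each replicate number, by 0.65 for the replicate 1 pair and 0.68 for replicates 2 and 3, while the groups overlapped because both replicate 1 arrays were high. Without a term for those arrays the log2 difference of 0.67 had an SE of 0.532 and a limma adjusted p of 1. With it the SE was 0.109 (95% interval 0.40 to 0.94), the unadjusted limma p was 0.000945, the lowest of the 23 probe sets in that fit, and the adjusted p over all probe sets was 0.56. Over all alternatives the limma adjusted p ran from 0.479 to 1.

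Another Bcl2l11 probe set, 1435448_at, had 888.4, 424.5 and 352.4 in the wild type and 1194.5, 475.0 and 475.0 in the knockout, differences of 0.42 for the replicate 1 pair and 0.28 for replicates 2 and 3. The brightest, 1456005_a_at, had 1948.5, 460.3 and 396.8 in the wild type and 2171.9, 578.3 and 425.3 in the knockout (log2 0.19, SE 0.785). These 3 were higher in the knockout at every replicate number, as were 3272 of all 22519 tested probe sets. At 1426334_a_at and 1456006_at the differences were 0.00 (SE 0.432) and -0.21 (SE 0.571), with signs that differed between the sets of arrays.

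Bnip3, which marks mitochondria for removal by autophagy and is known to be induced in low oxygen, had 1 probe set. At 1422470_at the signals were 10221.7, 12378.7 and 13310.2 in the wild type and 8015.7, 11617.1 and 11773.1 in the knockout. The knockout was lower at each replicate number, though the groups overlapped, with a log2 difference of -0.21 (SE 0.226, 95% interval -0.74 to 0.33). It was -0.35 for the replicate 1 pair and -0.13 for replicates 2 and 3.

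**Figure D2:**
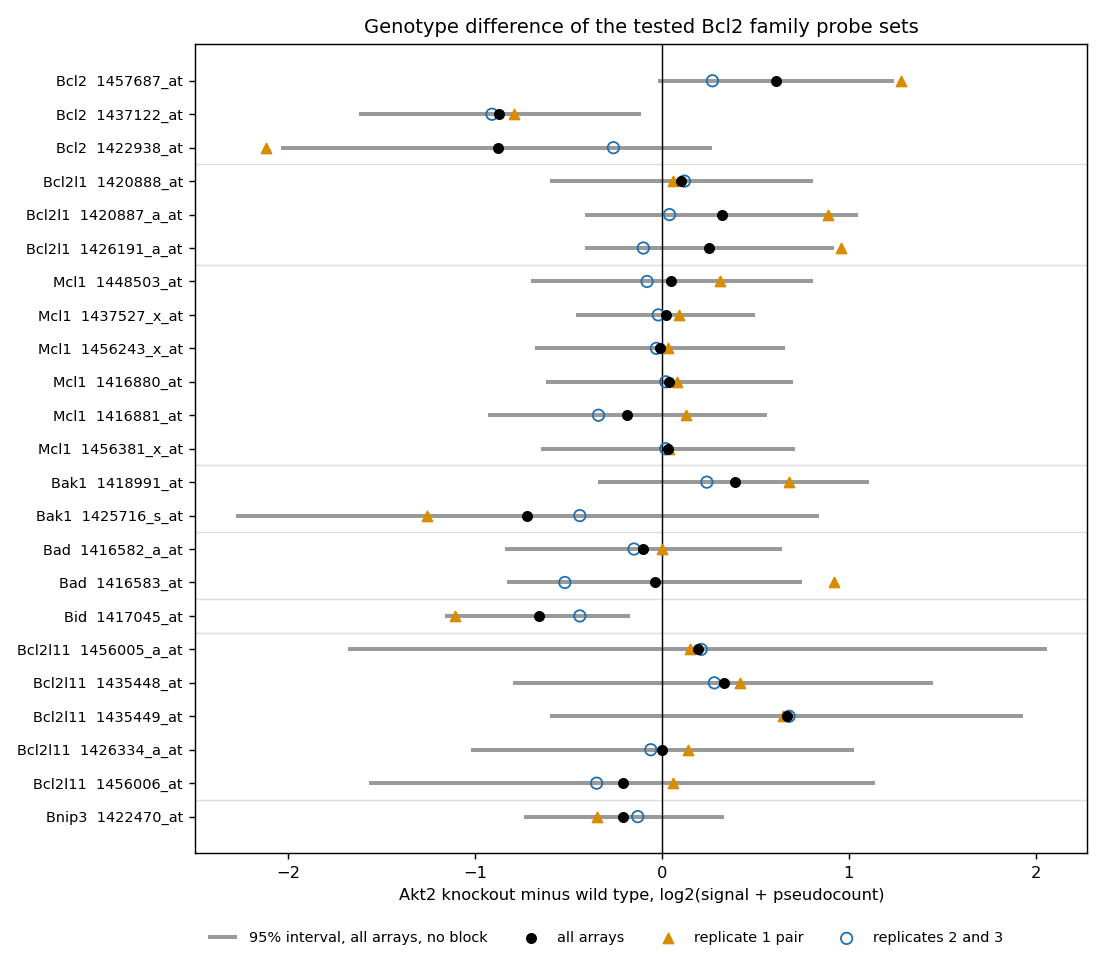
Log2 difference, Akt2 knockout minus wild type, for the 23 tested probe sets, with limma's 95% interval over all 6 arrays (grey), the value for the replicate 1 pair (triangles) and for replicates 2 and 3 (open circles). The intervals of Bcl2 at 1437122_at and of Bid at 1417045_at lie below 0, and the 3 Bcl2 probe sets fall on both sides of 0.

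The sign of the difference changed between the replicate 1 pair and replicates 2 and 3 in 9 of the 23 probe sets (39.1%), against 50.0% of all tested probe sets. In Bcl2, Bak1, Bid and Bnip3 it was the same in both sets at every tested probe set. By replicate number, 6 of the 23 were higher in the knockout at every number and 5 lower. Over all 22519 tested probe sets 3272 were higher and 3300 lower in this way. The labels do not say whether equal numbers pair the arrays. Among replicates 2 and 3 alone, limma gave 6 of the 23 an unadjusted p under 0.05, against 9.31% of all, and 0 an adjusted p under 0.05. The arrays of these replicates did not overlap between genotypes in 12 of the 23, a count to be read against 42% of all.

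Several members separated the replicate 1 arrays from the others, whatever the genotype. With genotype in the model, 14 of the 23 probe sets had a limma adjusted p under 0.05 for this difference, 7 higher and 7 lower in the replicate 1 arrays, against 33.1% of all tested probe sets (20% higher and 13.2% lower). All 5 Bcl2l11 probe sets were higher, by log2 1.04 to 2.11. The highest of these, 1456005_a_at, had an SE of 0.165 and a limma adjusted p of 0.00624. Both Bak1 probe sets were lower, by -0.66 and -1.71, as were Bnip3 (-0.44, limma adjusted p of 0.0439) and the brighter Bad probe set (-0.74). Quantile normalisation ended the call of Bnip3, at -0.37 and a limma adjusted p of 0.0578, while median centring gave -1.06 and 0.00321.

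Mcl1 split by probe set in the same comparison. The probe sets 1448503_at, 1416880_at and 1416881_at were lower in the replicate 1 arrays, by -0.73, -0.63 and -0.71, while 1456243_x_at and 1456381_x_at were higher, by 0.64 and 0.65. A suffix with x marks a probe set with probes that can bind other transcripts. Under median centring, which moved the median of all tested probe sets from 0.10 to -0.52, the last 2 gave 0.02 and 0.03, and 3 members' probe sets were called higher and 12 lower. Over all probe sets the share of calls that were higher fell from 60.2% to 7.2% with that centring, and was 44.4% with quantile normalisation. The 5 Bcl2l11 probe sets had positive values under both scalings, 0.42 to 1.49 after centring, and 4 passed the limma threshold with quantile normalisation and 3 after centring. What sets the replicate 1 arrays apart was not tested.

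**Figure D3:**
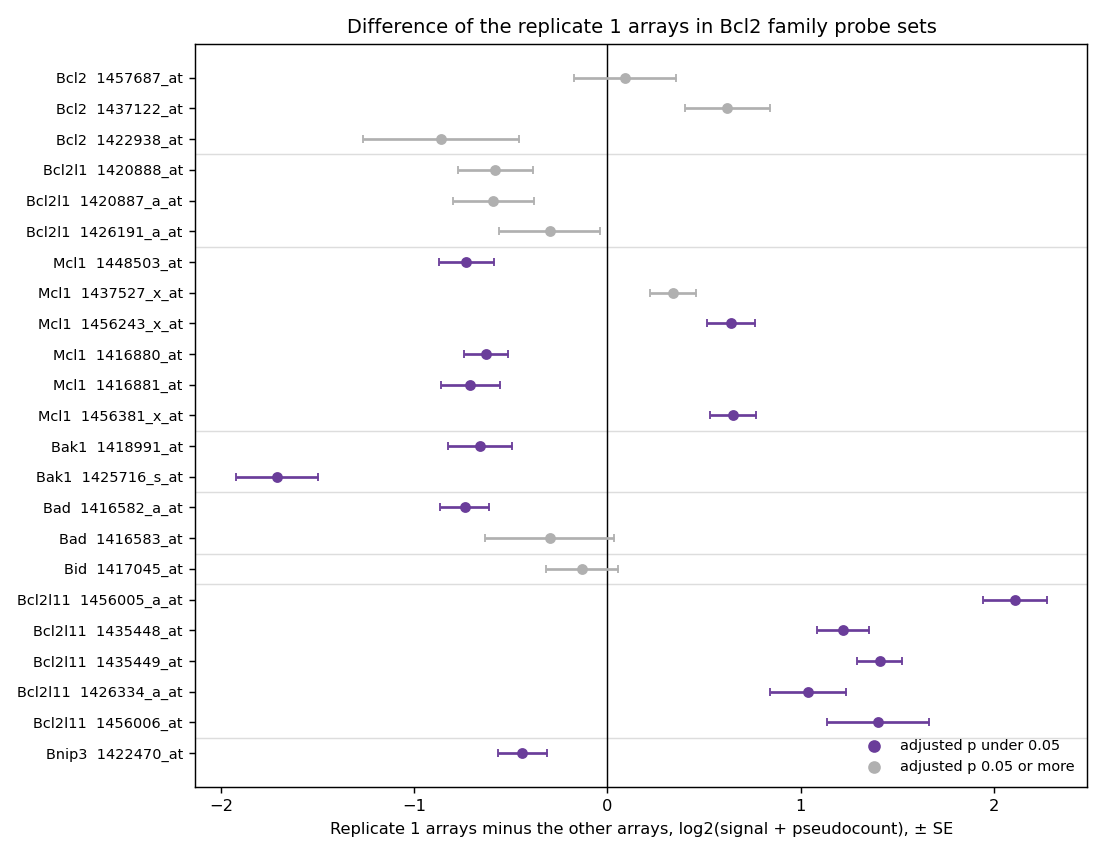
Log2 difference of the 2 replicate 1 arrays from the other 4, with genotype in the limma model, for the 23 tested probe sets (points with SE; purple where the adjusted p is under 0.05). All 5 Bcl2l11 probe sets lie between 1.04 and 2.11, both Bak1 probe sets lie below 0, and those of Mcl1 fall on both sides.

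The rest of the death pathway was described through 9 gene lists, each gene by its brightest probe set. In these lists 0 genes passed limma's adjusted threshold, and 0 had an unadjusted p under 0.05, against 1.76% of all 11075 genes tested. The other Bcl2 family genes had a median of -0.03 over 11 tested, with 5 higher and 6 lower, against 0.01 over all genes. Bok, a relative of Bak1, had 0.42 (SE 0.251), Bnip1 -0.23 (SE 0.249) and the sensor Bmf -0.34 (SE 0.425). Apoptosome and caspase genes had a median of 0.01 over 13 tested. Dffa, the inhibitor of the apoptotic nuclease, had 0.40 (SE 0.195), the initiator caspase Casp2 -0.31 (SE 0.18) and Casp9, the caspase of the apoptosome, 0.41 (SE 0.288).

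Inhibitors of apoptosis and related brakes had a median of -0.12 over 12 tested, with Bag1 at -0.26 (SE 0.178), Faim at -0.21 (SE 0.179) and Naip2 at -0.30 (SE 0.347). Death receptors and their adaptors had a median of -0.03 over 8 tested: Tradd was at -0.36 (SE 0.29), Mlkl at -0.20 (SE 0.235) and Casp8, the caspase that cleaves Bid, at 0.11 (SE 0.225). The list of p53 and its targets had the lowest median, -0.16 over 12 tested, with 9 lower and 3 higher. Its genes with the lowest p were Phlda3, an inhibitor of Akt, at -0.53 (SE 0.263), the cell cycle inhibitor Cdkn1a at -0.31 (SE 0.172) and Gadd45a at -0.29 (SE 0.175). With a term for the replicate 1 arrays, 10 of the genes tested in the 9 lists had an unadjusted limma p under 0.05. Their share is near the 6.92% of all genes, and 0 passed after adjustment. The 10 were Phlda3, Cdkn1a, Gadd45a and Perp among the p53 genes and Gabarapl1 and Hmox1 elsewhere, all lower in the knockout, and Dffa, Hif1a, Egln3 and Mief1, all higher.

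Beside Bnip3, mitophagy genes had a median of -0.03 over 16 tested and other genes of the hypoxia response -0.01 over 18. Gabarapl1, an autophagosome protein, had -0.28 (SE 0.163), Atg7 -0.39 (SE 0.217) and Map1lc3b -0.23 (SE 0.209). Hmox1, a haem-degrading enzyme, had -0.85 (SE 0.368), the oxygen-regulated factor Hif1a 0.36 (SE 0.194) and the angiogenic factor Vegfa 0.36 (SE 0.225). Kinases, phosphatases and adaptors that act on Bad had a median of 0.03 over 15 tested, with Akt1 at -0.23 (SE 0.156), Ppp2ca at 0.18 (SE 0.208) and Ppp3ca at 0.36 (SE 0.437). Genes of mitochondrial fission, fusion and channels had -0.01 over 15, with the fission receptors Mief2 at 0.31 (SE 0.174) and Mief1 at 0.28 (SE 0.227), and Ppif, a regulator of the permeability transition, at -0.24 (SE 0.2).

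**Figure D4:**
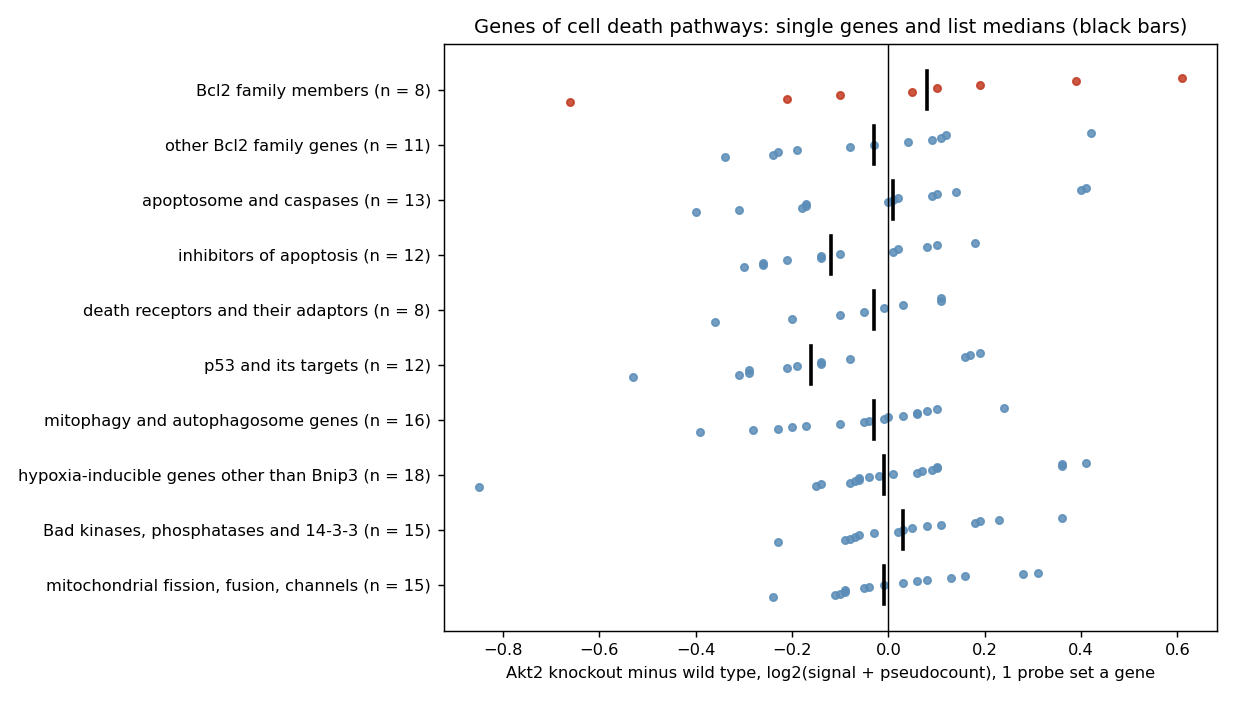
Log2 difference, Akt2 knockout minus wild type, of each tested gene by its brightest probe set (points) and the median of each list (black bars), for the Bcl2 family members (red) and 9 lists of related genes (blue). The list medians lie between -0.16 and 0.08.

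Markers of other cell types were read beside the members, since blood and vessel cells also express this family. All 10 tested macrophage markers were lower in the knockout (median -0.21), as were 9 of 10 endothelial markers (median -0.13), with 0 passing limma's threshold in either list. Summed macrophage signals were 20580 to 32090 in the wild type and 15110 to 31140 in the knockout, and summed endothelial signals 18690 to 20620 and 17310 to 18630. Cardiomyocyte markers were lower in 9 of 10, with medians of -0.66 for the replicate 1 pair and 0.17 for replicates 2 and 3. Mast cell markers on the array summed to 566.4 to 882.9 in the wild type and 382.1 to 434.0 in the knockout, without overlap. The summed endothelial signals did not overlap either, and no background share is given here for such sums. Only 2 of the 8 mast cell markers passed the filter on low signals. The mast cell protease Cpa3 had -1.47 (SE 0.27), with a limma adjusted p of 1, and the receptor Kit -0.01 (SE 0.276). Of the remaining types, fibroblast markers had a median of 0.07 over 10 tested, smooth muscle and pericytes 0.03 over 9, neutrophils -0.07 over 3 and erythroid cells -0.22 over 2, and 0 adipocyte markers were tested. The neutrophil median was 1.88 for the replicate 1 pair and -0.93 for replicates 2 and 3, and the erythroid median 0.38 and -0.52. The lymphocyte markers summed to 297.2 to 643.2 and 441.6 to 574.2. In whole ventricle, fewer cells of a type and less RNA per cell cannot be told apart, and the part of these markers in the Bcl2 and Bid values was not tested.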

How the data were processed

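Left ventricle RNA was measured on 6 arrays (3 Akt2 knockout, 3 wild type). The deposited values are linear intensities, computed with MAS5 per the submitters' processing notes; the sources used here state neither its version nor its settings. Each array had a trimmed mean of 500.0 (a share of 0.02 trimmed at each end), which points to 1 scaling factor an array, and that scaling was kept. The number of arrays limits the precision.

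Of 45101 probe sets, 64 controls were left out. Of the rest, 34945 have 1 gene symbol, 932 several and 9160 are unnamed here. Values were put on the scale log2(signal + 21.7), the 20th percentile of all values, which understates changes of dim genes. The 22519 probe sets at or above the median mean of 6.868 entered a two-sided limma fit (3.58.1, R 4.3.3) with no covariate and Benjamini-Hochberg adjustment over all of them at 0.05. Fold errors are limma's moderated SE. The test was checked on simulated data.

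The members and gene lists were chosen with earlier results of these data known. Every member was named whatever its result, with Akt2 and, from each list, 3 genes by lowest p. The fit for the replicate 1 arrays as an outcome was added later. Same-numbered arrays deviated together (correlations of 0.61, 0.45 and 0.39 over probe sets). Unlike numbers 2 and 3 did so to a like degree (0.44 and 0.36), and replicate 1 went against both (-0.53 to -0.44). Beyond the replicate 1 split, pairing by number was thus not shown. The number was used as a block only as an alternative. No protein sequences were used here, so the planned comparison of proteins was left out. Other alternatives were pseudocounts of 1 and 68.2, no filter or a stricter one, quantile and median scaling, a trended variance estimate, and leaving out each array.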

Additional observations from a re-analysis of the deposited data

How the results depend on the processing

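No member gene and no gene of the 9 lists passed limma's adjusted threshold under any alternative run, and over the alternatives the lowest adjusted p of a member's brightest probe set was 0.513. Over all probe sets, the term for the replicate 1 arrays gave 1 call, and with a trended, robust variance estimate, added after the data were seen, 13. Leaving out 1 array in turn gave 0 for each of these 3 counts. With the replicate block there were 0 calls, and the block changed no call.

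The count of 4 probe sets with genotypes apart became 0 of the 11 tested under the stricter filter on low signals. That filter left out all 4 for their low signals, so it could not test whether they stayed apart. The count was 2 with quantile normalisation and 2 with median centring. In replicates 2 and 3 alone the count was 12, where 42% of all probe sets were apart, and it ran from 4 to 11 without 1 array, the highest without wild type replicate 1, where 27.9% of all were apart.

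Of 141 alternative values of the members' brightest probe sets, 126 kept their sign and 15 did not. Fits with a block, another variance estimate or another filter return the same difference by design. They could not change a sign, so the 126 is not a measure of robustness. Averaging a gene's tested probe sets gave -0.38 for Bcl2, -0.17 for Bak1 and -0.01 for Mcl1, and replicates 2 and 3 alone gave -0.08 for Mcl1. Without 1 array the values ran from -0.09 to 0.32 for Bcl2l1, -0.26 to 0.23 for Mcl1, -0.37 to 0.12 for Bad and -0.51 to 0.90 for Bcl2l11. They kept their sign for Bcl2 (0.41 to 0.83), Bak1 (0.09 to 0.61), Bid (-0.77 to -0.51) and Bnip3 (-0.32 to -0.02). These fits leave unequal shares of the replicate 1 arrays in the genotypes. The cause of the reversals was not tested. Detection calls were not used here, so low signals have no stated floor.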
